A study of Mus musculus with 106 samples.

Results

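Bmp8b, Fgf21, Nrg4, Gdf15, Slit2, Il6 and Metrnl are genes for secreted factors that brown fat releases, or has been reported to release, when it is activated. They were chosen by symbol, and their rows were read from the 4 tables of raw gene counts. The set holds 7 genes of the 21647 listed in the table of 8 tissues, which holds the most libraries, and each of the 7 was found in all 4 tables. The study read the RNA of 11 tissues of male C57BL/6J mice in 106 libraries. In the cold set, mice were at 10 °C for 2 weeks, reached through steps of 18 and 14 °C that lasted 5 days each, and the labels give an age of 11 weeks, or 12 weeks for quadriceps. In the warm set, mice were at 34 °C for 4 weeks and were 12 weeks old. Controls of each set were at 22 °C, and no group carried a transgene or a drug. Each group had 3 libraries, except 6 in bone marrow, 5 in spinal cord, and 6 quadriceps libraries at 22 °C, which the labels do not divide between the sets and which served as controls of both. Per the study, a library pooled 2 mice, except in bone marrow and spinal cord and in 5 of the 6 iBAT libraries of the warm set, which came from single mice. The mice of the cold and warm sets came from different suppliers, and the libraries of the 8-tissue table (the cold set without quadriceps, bone marrow and spinal cord) were made with another kit than those of bone marrow, spinal cord and the warm set (for quadriceps at 10 °C the labels and the study's methods name different kits), so levels in different sets are given side by side and compared only with the controls of the same set.

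As background, cold activates brown fat through noradrenaline released by sympathetic nerves. The cells then burn fuel through the uncoupling protein Ucp1 and also send signals to nerves, vessels, liver and brain. Bmp8b is a secreted protein of the bone morphogenetic protein family that sensitises brown fat to nerve input, and Nrg4 is an epidermal growth factor-like ligand that acts on the liver. Fgf21 is a metabolic hormone made mainly in liver and induced in brown fat by cold, and Gdf15 is a stress hormone that acts on the hindbrain. Slit2 is an axon guidance protein, Il6 is a cytokine, and Metrnl is a meteorin-like hormone of fat, muscle and barrier tissues.

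The libraries held 4262403 to 62880248 counts. Ucp1, the check of brown fat activation, read 5412, 4093 and 8275 CPM (counts scaled to a common library size) in the 22 °C iBAT libraries of the cold set and 9136, 12794 and 10442 CPM at 10 °C, so the groups did not overlap. Its log2 fold change was 0.86 (SE 0.29, edgeR's quasi-likelihood test, adjusted p = 0.0850, n = 3 and 3). In ingSAT it rose by 7.35 on the log2 scale (SE 0.69, adjusted p = 0.00460), and in iBAT at 34 °C it fell by 2.26 (SE 0.20, adjusted p = 0.00107). The 5 brown adipocyte markers summed to 8048 to 17983 CPM in iBAT of the cold set and were above 0 in each group. Some libraries held markers of other tissues. The 4 hepatocyte markers summed to 40.7 to 74.9 CPM in iBAT at 22 °C and to 0.509 to 1.39 CPM at 10 °C, while the 4 epididymis markers were at 0 in iBAT at 22 °C and summed to 3.13 to 32.9 CPM at 10 °C. The 5 skeletal muscle markers summed to 5787 to 7773 CPM at 22 °C and 2146 to 4611 CPM at 10 °C in iBAT. In brain, the 22 °C library of replicate 2 stood apart, with hepatocyte markers at 60024 CPM against 733 and 1102 CPM in the others. In pgVAT at 22 °C, replicates 2 and 3 held 7607873 and 4262403 counts. Replicate 3 read Ucp1 at 308 CPM, against 1.19 and 3.74 CPM in the other pgVAT libraries at 22 °C. The part of these in the results below was not tested.

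The members differed in where they were read. At 22 °C, Nrg4 was highest in the fat depots, at 207 CPM ± 6.86 (SD, n = 3) in iBAT of the cold set, 125 CPM ± 18.3 in ingSAT and 100.1 CPM ± 16.4 in pgVAT. The ranges of ingSAT and pgVAT overlapped, and both lay below iBAT. The next tissue was liver, with 5.69 CPM ± 0.835 in the cold set. Exons of Nrg4 share 368 bases with Fbxo22 and 177 with Gm15625, both on the opposite strand. Their part in the Nrg4 levels was not tested. Slit2 was highest in hypothalamus, at 170 CPM ± 9.46 (SD, n = 3), then brain at 48.5 CPM ± 10.8 (n = 3), and these ranges did not overlap. In spinal cord, whose libraries were made with another kit, it read 74.5 CPM ± 2.52 (n = 5). Slit2 reached 23.7 CPM ± 5.05 in pgVAT and was at 1.58 CPM ± 0.185 in iBAT. Metrnl was highest in ileum, at 47.0 CPM ± 2.80 in the cold set, and its range overlapped that of ingSAT at 32.8 CPM ± 11.9. In iBAT it was at 7.31 CPM ± 0.734, and iBAT, brain and hypothalamus could not be ordered.

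Bmp8b was highest in ileum, at 5.85 CPM ± 0.671 (SD, n = 3) in the cold set, followed by spleen at 2.18 CPM ± 0.387 and hypothalamus at 1.29 CPM ± 0.104. In pgVAT it was at 1.20 CPM ± 0.716, and this range overlapped those of hypothalamus and spleen. In iBAT at 22 °C Bmp8b was at 0.439 CPM ± 0.202, with 6, 4 and 15 reads. It had no read in the 6 quadriceps libraries at 22 °C, which allows up to 0.0536 to 0.0761 CPM per library (3 counts). Gdf15 was highest in liver at 7.64 CPM ± 1.81, and in iBAT it was at 0.135 CPM ± 0.140. Fgf21 was highest in liver, at 0.482 CPM ± 0.536 in the cold set and 1.40 CPM ± 0.973 in the warm set, and no neighbours in its order could be told apart. Il6 was the rarest member, with at most 17 reads in any library. Its highest mean was 0.792 CPM ± 0.156 (n = 6) in bone marrow, whose libraries were made with another kit. In iBAT at 22 °C and per kilobase of the longest coding transcript, Nrg4 was at 108 CPM, Metrnl at 5.22, Slit2 at 0.158, Fgf21 at 0.154, Bmp8b at 0.149, Gdf15 at 0.0873 and Il6 at 0.0250.

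**Figure D1:**
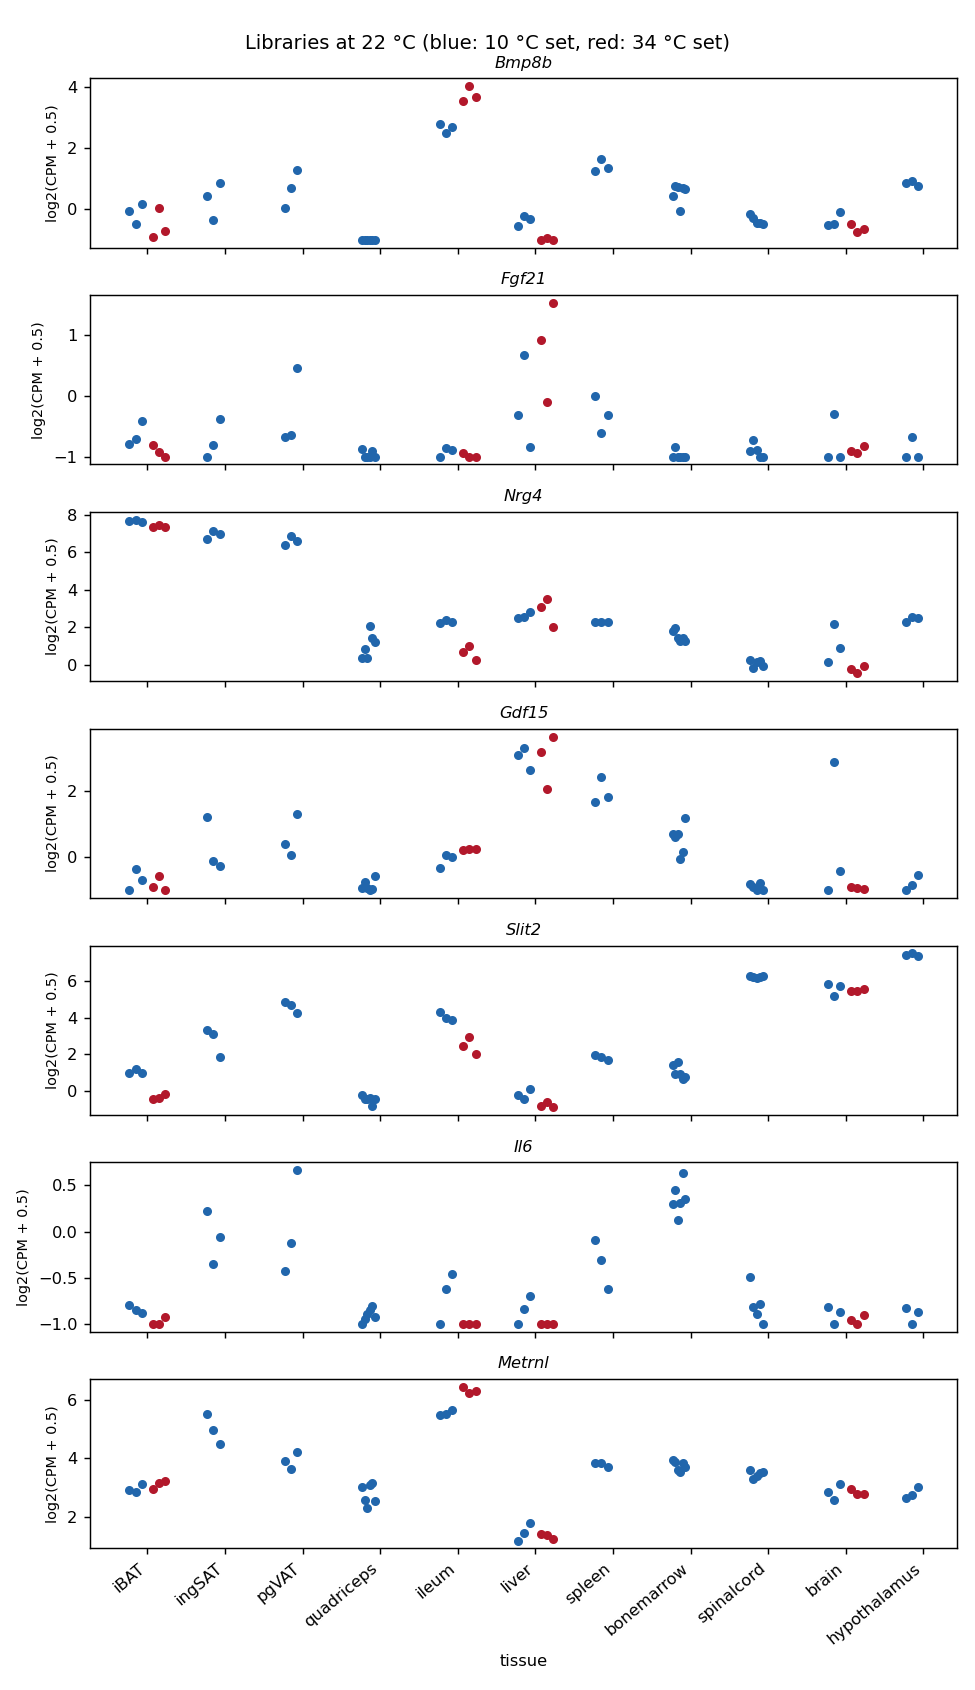
Level of the 7 members in each library at 22 °C, as log2(CPM + 0.5), by tissue, with each gene on its own axis. Points are libraries, blue for the 10 °C set, with the shared quadriceps libraries, and red for the 34 °C set. Nrg4 is highest in the 3 fat depots, Slit2 in hypothalamus, and Bmp8b and Metrnl in ileum.

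In iBAT at 10 °C, Bmp8b rose and no other tested member was called. A gene was called at a Benjamini-Hochberg adjusted p under 0.05 over all genes tested, those with an average log2 CPM above 0. Of 12791 genes tested in iBAT, 1445 were called, or 11.3%, and 1 of the 4 members tested was called. That member, Bmp8b, averaged 0.439 CPM at 22 °C and passed the filter through its 10 °C libraries, so the count of members tested depends on its rise. In the fit over every gene with more than 1 count in all, Bmp8b was also called (log2 fold change 4.88, edgeR's quasi-likelihood test, adjusted p = 0.00012). The median log2 fold change of these 4 members was -0.10 and that of all genes was -0.02. With the limits of the study, a fold change above 1.5 with p no higher than 0.05 before adjustment, 13.2% of all genes and again 1 member passed.

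Bmp8b read 0.468, 0.224 and 0.626 CPM in the 22 °C libraries and 8.76, 20.1 and 11.6 CPM at 10 °C. The lowest 10 °C library was above the highest 22 °C library. The log2 fold change was 4.87 (SE 0.43, interval 3.89 to 5.85, edgeR's quasi-likelihood test, adjusted p = 0.000483, n = 3 and 3). The mean rose from 0.439 to 13.5 CPM, beside 10.6 CPM ± 1.27 (SD, n = 3) in ileum at 10 °C. Enterocyte markers summed to 1.09 to 1.96 CPM in iBAT at 22 °C and to 2.23 to 3.18 CPM at 10 °C, with Alpi at 0 in both groups. In the pgVAT libraries at 10 °C, where epididymis markers ran from 2.39 to 18898 CPM, Bmp8b was at 0.283 to 0.876 CPM. The part of enterocytes or epididymis in the Bmp8b value of iBAT was not tested.

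Bmp8b lies on mouse chromosome 4, at positions 123105165 to 123132099 of GRCm38, the build of the files, and its close copy Bmp8a lies at 123312645 to 123343252 on the other strand. Of the 50-base stretches of the Bmp8b transcripts, 5.50% also occur in Bmp8a. Bmp8a had 0, 4 and 3 reads in iBAT at 22 °C and 3, 3 and 4 reads at 10 °C, with means of 0.116 and 0.202 CPM. Exons of Bmp8b share 339 bases with Gm17244 and 133 bases with Ppie, both on the opposite strand, and the kit of these libraries does not mark strand. The part of Gm17244 in the Bmp8b counts was not tested. Ppie itself had a log2 fold change of 0.28 in iBAT (adjusted p = 0.184, edgeR's quasi-likelihood test). The 250 bases before the RefSeq start of each copy are shown, because Bmp8b rose in iBAT while Bmp8a had at most 4 reads in any iBAT library of the cold set, though the difference of the copies was not tested (RefSeq, GRCm38.p6, chr4:123104911-123105160 on the plus strand for Bmp8b and chr4:123343253-123343502 on the minus strand for Bmp8a).
Bmp8b: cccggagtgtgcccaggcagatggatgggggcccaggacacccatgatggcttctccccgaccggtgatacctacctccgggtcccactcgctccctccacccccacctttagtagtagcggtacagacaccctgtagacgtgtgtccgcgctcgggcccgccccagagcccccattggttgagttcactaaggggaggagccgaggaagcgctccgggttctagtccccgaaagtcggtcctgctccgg
Bmp8a: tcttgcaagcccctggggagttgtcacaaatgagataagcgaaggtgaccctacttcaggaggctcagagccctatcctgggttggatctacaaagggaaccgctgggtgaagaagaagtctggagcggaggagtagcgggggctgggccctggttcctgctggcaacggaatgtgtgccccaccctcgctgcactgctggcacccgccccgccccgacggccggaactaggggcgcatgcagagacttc
Neither stretch held the cAMP response element core TGACG, the E-box CACGTG or the PPAR core AGGTCA on either strand. Of 32851 mouse promoters, 17.8%, 6.02% and 14.02% held these motifs in the same 250 bases. Of the other members, Il6 held TGACG at 1 site, Nrg4 held AGGTCA at 2, Gdf15, with 2 listed starts, held AGGTCA before one and CACGTG before the other, and Slit2 and Metrnl held none of the 3.

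**Figure D2:**
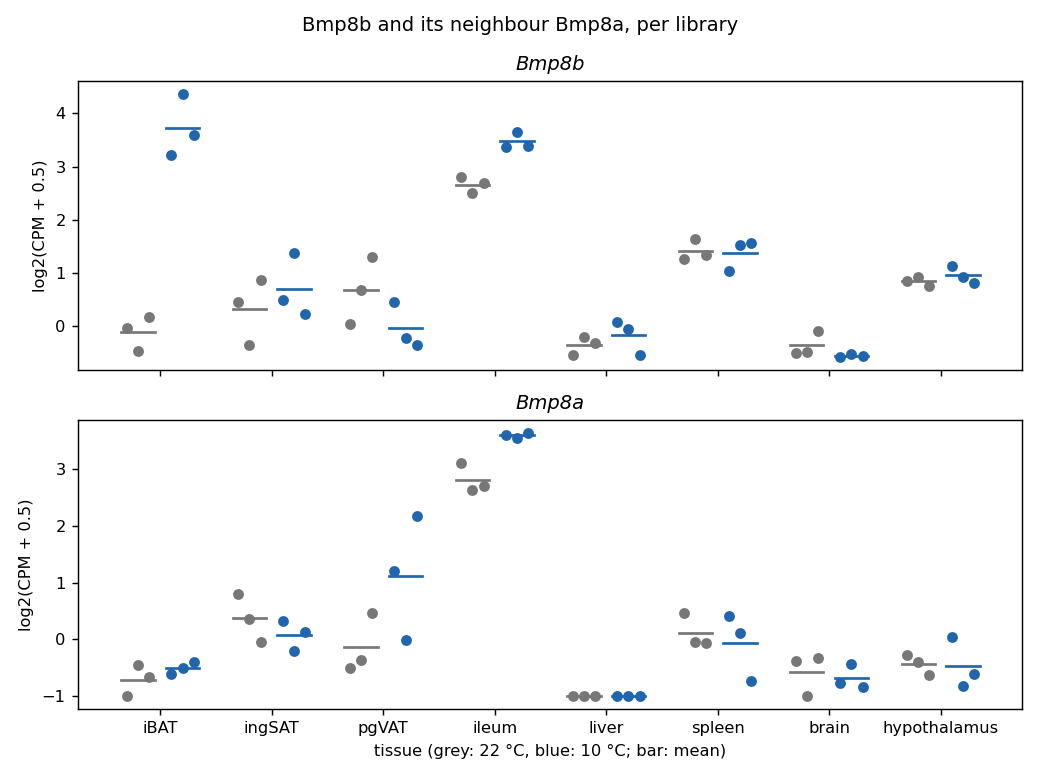
Bmp8b and its neighbour Bmp8a in each library of the 8-tissue table, as log2(CPM + 0.5). Points are libraries, bars are means, grey is 22 °C and blue is 10 °C, with each gene on its own axis. Bmp8b is higher at 10 °C in iBAT without overlap, and Bmp8a is not. Both read higher in ileum at 10 °C, where neither was called in edgeR's quasi-likelihood test.

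The effect of 10 °C on Bmp8b was compared between tissues with an interaction term. The fits between tissues treated all libraries as independent. Libraries of different tissues may come from the same mice, which these p-values do not take into account. The log2 fold change in iBAT was larger than in ingSAT by 4.30 (SE 0.84, adjusted p = 0.020), with 3.55% of genes called, than in pgVAT by 5.93 (SE 0.88, adjusted p = 0.0356), with 0.0835% called, and than in liver by 4.43 (SE 0.87, adjusted p = 0.00655), with 8.52% called (edgeR's quasi-likelihood test). When each library was left out in turn, the difference from liver remained called in 12 of 12 fits, that from ingSAT in 10 of 12, and that from pgVAT in 3 of 12, with adjusted p up to 0.133. In pgVAT and liver Bmp8b was itself under the filter, at 1.20 and then 0.504 CPM on average in pgVAT and 0.280 and then 0.399 CPM in liver, and it entered these tests through its level in cold iBAT, so these calls add nothing to the iBAT result. In ingSAT, where Ucp1 rose, Bmp8b read 0.860, 0.284 and 1.32 CPM at 22 °C and 0.912, 2.09 and 0.666 CPM at 10 °C, and these groups overlapped.

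Fgf21 was under the filter in iBAT. It had 1, 2 and 6 reads at 22 °C, or 0.0780, 0.112 and 0.250 CPM, and 33, 13 and 24 reads at 10 °C, or 1.63, 0.884 and 1.53 CPM. The 2 groups did not overlap. The exact two-sided permutation test gave p = 0.1, the smallest that 3 against 3 allows. In the fit over every gene with more than 1 count in all, 9.4% of genes were called, and the log2 fold change of Fgf21 was 3.03 (SE 0.52, edgeR's quasi-likelihood test, adjusted p = 0.00494). Without each library in turn, its adjusted p ran from 0.00496 to 0.0307. In ingSAT Fgf21 had 0, 1 and 4 reads at 22 °C and 6, 9 and 5 reads at 10 °C, with no overlap and p = 0.1 in the exact test. The 250 bases before its RefSeq start are shown, since Fgf21 was also higher in cold iBAT and held 2 of the 3 motifs (RefSeq, GRCm38.p6, chr7:45615491-45615740, minus strand, motif matches in capitals).
Fgf21: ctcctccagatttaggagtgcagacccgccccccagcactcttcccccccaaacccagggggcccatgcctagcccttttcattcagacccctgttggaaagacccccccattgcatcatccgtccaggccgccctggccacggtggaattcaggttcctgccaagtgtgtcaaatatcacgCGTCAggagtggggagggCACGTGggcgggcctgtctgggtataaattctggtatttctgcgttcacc
It held the element core as CGTCA, 68 to 64 bases before the start, and the E-box 50 to 45 bases before it. A match is a description of the letters and not of binding.

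Nrg4, Metrnl, Slit2, Gdf15 and Il6 were not called in iBAT at 10 °C. Nrg4 read 206, 214 and 201 CPM at 22 °C and 152, 203 and 175 CPM at 10 °C, and the groups overlapped. Its log2 fold change was -0.23 (SE 0.13, edgeR's quasi-likelihood test, adjusted p = 0.290). Metrnl read 7.10, 6.71 and 8.13 CPM and then 9.75, 5.78 and 6.68 CPM, with a log2 fold change of 0.02 (SE 0.22, adjusted p = 0.960, edgeR). Slit2 read 1.48, 1.79 and 1.46 CPM at 22 °C and 1.73, 1.16 and 0.191 CPM at 10 °C, so 1 of the 3 cold libraries was far below the others. Gdf15 had at most 6 reads and Il6 at most 1 read in any iBAT library of the cold set.

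**Figure D3:**
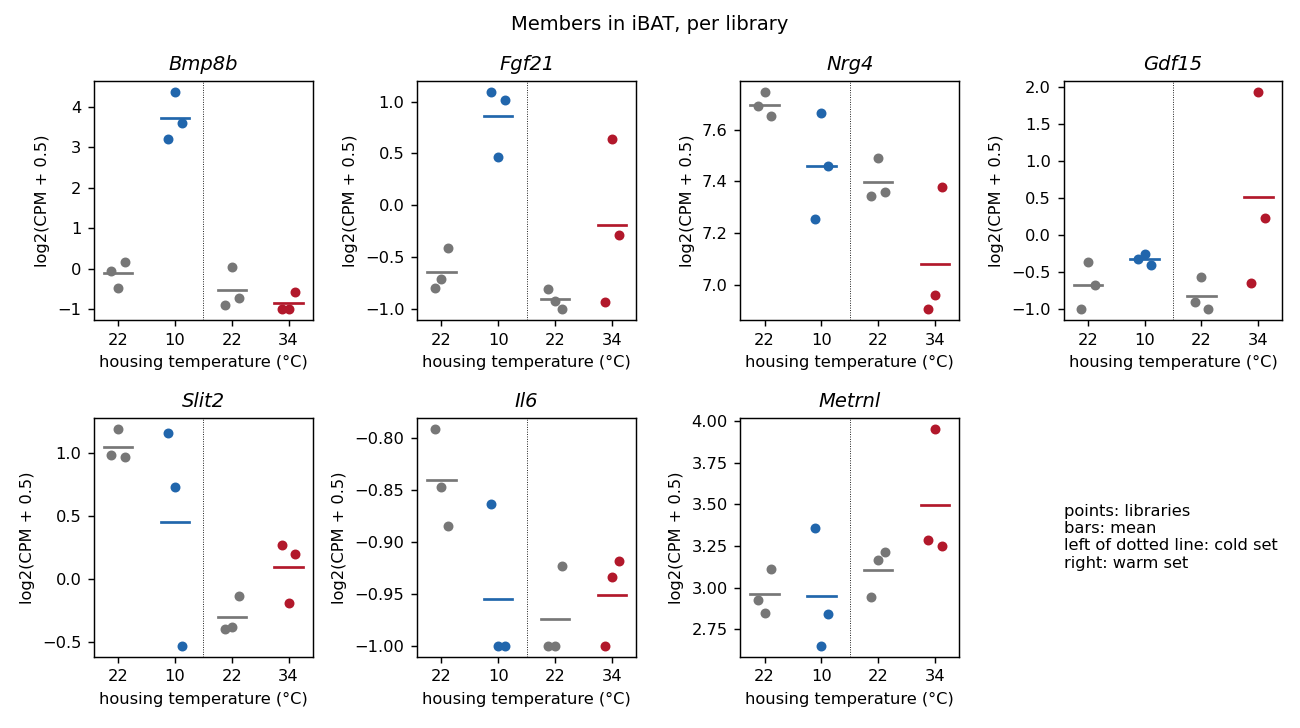
The 7 members in each iBAT library, as log2(CPM + 0.5), with each gene on its own axis. Points are libraries, bars are means, the cold set is left of the dotted line and the warm set right of it. Bmp8b and Fgf21 at 10 °C lie above their 22 °C libraries, and at 34 °C Fgf21 and Gdf15 are highest in 1 library, replicate 2.

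In iBAT at 34 °C, 28.9% of 12331 genes were called and none of the 2 members tested, Nrg4 and Metrnl, was. The median log2 fold change of these 2 members was 0.07 and that of all genes was 0.02. Nrg4 read 162, 180 and 164 CPM at 22 °C and 119, 124 and 166 CPM at 34 °C, so that 1 of the 3 warm libraries lay among the controls. Its log2 fold change was -0.31 (SE 0.14, edgeR's quasi-likelihood test, adjusted p = 0.134), and without 34 °C replicate 3 it was -0.48 (adjusted p = 0.0254). With library size alone it was -0.034 (adjusted p = 0.849, edgeR). Metrnl read 7.21, 8.47 and 8.79 CPM and then 9.26, 15.02 and 9.02 CPM, without overlap, with a log2 fold change of 0.44 (SE 0.22, adjusted p = 0.166, edgeR). Scaling by library size alone, which moved the median of all genes to 0.30, called it at 0.71. Without 34 °C replicate 2 it was at 0.15 (adjusted p = 0.543, edgeR).

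Bmp8b was rarely read in iBAT of the warm set, with 0, 0 and 6 reads against 1, 18 and 4 at 22 °C, and these groups overlapped. Fgf21 had 2, 1 and 0 reads at 22 °C and 1, 45 and 11 at 34 °C. Gdf15 had 1, 6 and 0 reads at 22 °C and 6, 141 and 23 at 34 °C, with means of 0.0717 and 1.37 CPM. Both were highest in the same 34 °C library, replicate 2, in which Metrnl was also highest. In the fit over genes with more than 1 count, where 20% of genes were called, the log2 fold changes were 3.74 for Fgf21 (SE 1.42, adjusted p = 0.0896) and 4.19 for Gdf15 (SE 1.33, adjusted p = 0.0552, edgeR). Without that library they were 2.25 and 2.39 (adjusted p = 0.326 and 0.228). In the same setting DESeq2 called both, with adjusted p of 0.0336 and 0.00134, and edgeR's exact test called Gdf15 (adjusted p = 0.0265) but not Fgf21 (adjusted p = 0.0962). At the filter of an average log2 CPM above 0, DESeq2 called 4396 and the exact test 2831 of all genes in this comparison. Between iBAT and liver no member was called for a difference in the effect of 34 °C, where 9.1% of genes were called.

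In ileum, Bmp8b was at 6.47, 5.14 and 5.94 CPM at 22 °C and at 9.86, 12.1 and 9.96 CPM at 10 °C, without overlap. Its log2 fold change was 0.86 (SE 0.15, edgeR's quasi-likelihood test, adjusted p = 0.0785), in a comparison where 0.0639% of 14081 genes were called. DESeq2 and edgeR's exact test called Bmp8b, with adjusted p of 0.00192 and 0.00805, beside 556 and 331 of all 14081 genes. By the limits of the study it was the 1 member that passed, with 2.71% of all genes. Bmp8a, also read in ileum, went from 8.10, 5.68 and 6.02 CPM to 11.7, 11.2 and 12.0 CPM (log2 fold change 0.82, adjusted p = 0.0960, edgeR). Enterocyte markers were higher too, at 4739 to 5268 CPM and then 8601 to 8839 CPM, with 1 of 4 called, and their part in the result was not tested. At 34 °C Bmp8b was at 11.2, 15.9 and 12.5 CPM in controls and 8.22, 7.37 and 9.86 CPM in warm ileum, again without overlap. That log2 fold change was -0.64 (SE 0.18, edgeR, adjusted p = 0.594), and Bmp8b was the member passing the limits of the study, with 2.83% of genes. Metrnl in ileum was at 47.0 and then 59.0 CPM on average at 10 °C (log2 fold change 0.33, adjusted p = 0.223, edgeR) and at 80.2 and then 68.1 CPM at 34 °C.

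In ingSAT at 10 °C, 7.51% of 13982 genes were called and 0 of 4 members. By the limits of the study 16.3% of genes passed, and of the members Slit2 and Metrnl, both lower. Slit2 read 9.56, 8.09 and 3.10 CPM at 22 °C and 3.07, 3.02 and 2.81 CPM at 10 °C, without overlap, and its log2 fold change was -1.21 (SE 0.42, edgeR's quasi-likelihood test, adjusted p = 0.118). Metrnl read 45.6, 30.7 and 21.96 CPM and then 23.5, 13.4 and 17.1 CPM, with overlap, and its log2 fold change was -0.86 (SE 0.31, adjusted p = 0.129, edgeR). The 22 °C replicate 3 was the lowest of the controls for both genes, and without it both were called, at -1.54 and -1.05. The 4 fibroblast markers summed to 655, 3071 and 5104 CPM at 22 °C, from lowest to highest, and to 449 to 714 CPM at 10 °C, and their part in the result was not tested. In bulk tissue, fewer cells of a type and less RNA per cell cannot be told apart. Nrg4 read 105, 141 and 128 CPM at 22 °C and 149, 162 and 162 CPM at 10 °C, without overlap (log2 fold change 0.34, SE 0.14, adjusted p = 0.164, edgeR). Its effect in iBAT was lower than in ingSAT by 0.58 on the log2 scale (adjusted p = 0.111).

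In bone marrow, Metrnl was called, in a comparison where 19% of 12525 genes were called and where 1 of 4 members was. It ran from 11.2 to 14.7 CPM (median 13.1) at 22 °C and from 8.14 to 10.5 CPM (median 9.95) at 10 °C, without overlap. The log2 fold change was -0.44 (SE 0.09, edgeR's quasi-likelihood test, adjusted p = 0.00555, n = 6 and 6). Markers of blood cells moved with it. Of the 4 neutrophil markers 2 were called lower, the 3 B cell markers and 3 of the 4 red cell precursor markers were called higher, and the part of this in the Metrnl result was not tested. Il6 ran from 0.588 to 1.05 CPM at 22 °C and from 0.246 to 0.670 CPM at 10 °C, with overlap (exact permutation test, two-sided, unadjusted p = 0.00866), and Bmp8b from 0.452 to 1.21 CPM and from 0.268 to 0.744 CPM (unadjusted p = 0.0281, exact). These are 2 of the 59 such tests of members under the filter, and at the lowest filter neither was called (adjusted p = 0.105 and 0.118, edgeR).

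In liver at 10 °C, Gdf15 was at 7.95, 9.27 and 5.70 CPM at 22 °C and 10.8, 14.3 and 11.9 CPM at 10 °C, without overlap. The log2 fold change was 0.69 (SE 0.18, edgeR's quasi-likelihood test, adjusted p = 0.123), with 0% of 12026 genes called. DESeq2 and edgeR's exact test called Gdf15, with adjusted p of 0.0254 and 0.0241, beside 518 and 455 of all 12026 genes. It was the 1 member within the limits of the study, which 3.28% of genes passed. Fgf21 in liver had 5, 18 and 1 reads at 22 °C and 12, 13 and 18 at 10 °C, with overlap. At 34 °C Gdf15 in liver was at 8.53, 3.71 and 12.0 CPM and then 13.7, 32.4 and 6.45 CPM, and 0.385% of genes were called. In spleen, Gdf15 was at 2.64, 4.85 and 3.005 CPM and then 1.48, 1.39 and 2.65 CPM, with a log2 fold change of -0.96 (SE 0.34, adjusted p = 0.485, edgeR), where 0.0779% of genes were called and 2.68% passed the limits of the study, Gdf15 among them.

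In quadriceps, 0.338% of genes were called at 10 °C and 0% at 34 °C, and neither Nrg4 nor Metrnl was. Nrg4 ran from 0.762 to 3.63 CPM at 22 °C and was at 4.31, 3.74 and 1.22 CPM at 10 °C. Ucp1 was at 121, 96.4 and 27.8 CPM in the same 3 libraries at 10 °C and at 0.0486 to 6.96 CPM at 22 °C, so the library lowest in Nrg4 was also lowest in Ucp1. In brain, 0% of genes were called at 10 °C and at 34 °C. Gdf15 had 0, 65 and 5 reads at 22 °C, the 65 in the library with hepatocyte markers, and 2, 4 and 6 at 10 °C. Slit2 was at 56.9, 36.4 and 52.2 CPM at 22 °C and 62.4, 58.2 and 59.8 CPM at 10 °C. Its log2 fold change was 0.31 and without the library that stood apart it was 0.14 (adjusted p = 0.706 and 0.637, edgeR). In hypothalamus 0% of genes were called and in spinal cord 0.00695%. Slit2, the most abundant member there, differed by 0.03 and 0.02 on the log2 scale (intervals -0.10 to 0.15 and -0.09 to 0.14). In pgVAT at 10 °C 0% of genes were called, Nrg4 was at 60.7, 155 and 46.8 CPM against 85.0, 118 and 97.7 CPM, and the groups overlapped. In ileum at 34 °C 0% of genes were called.

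**Figure D4:**
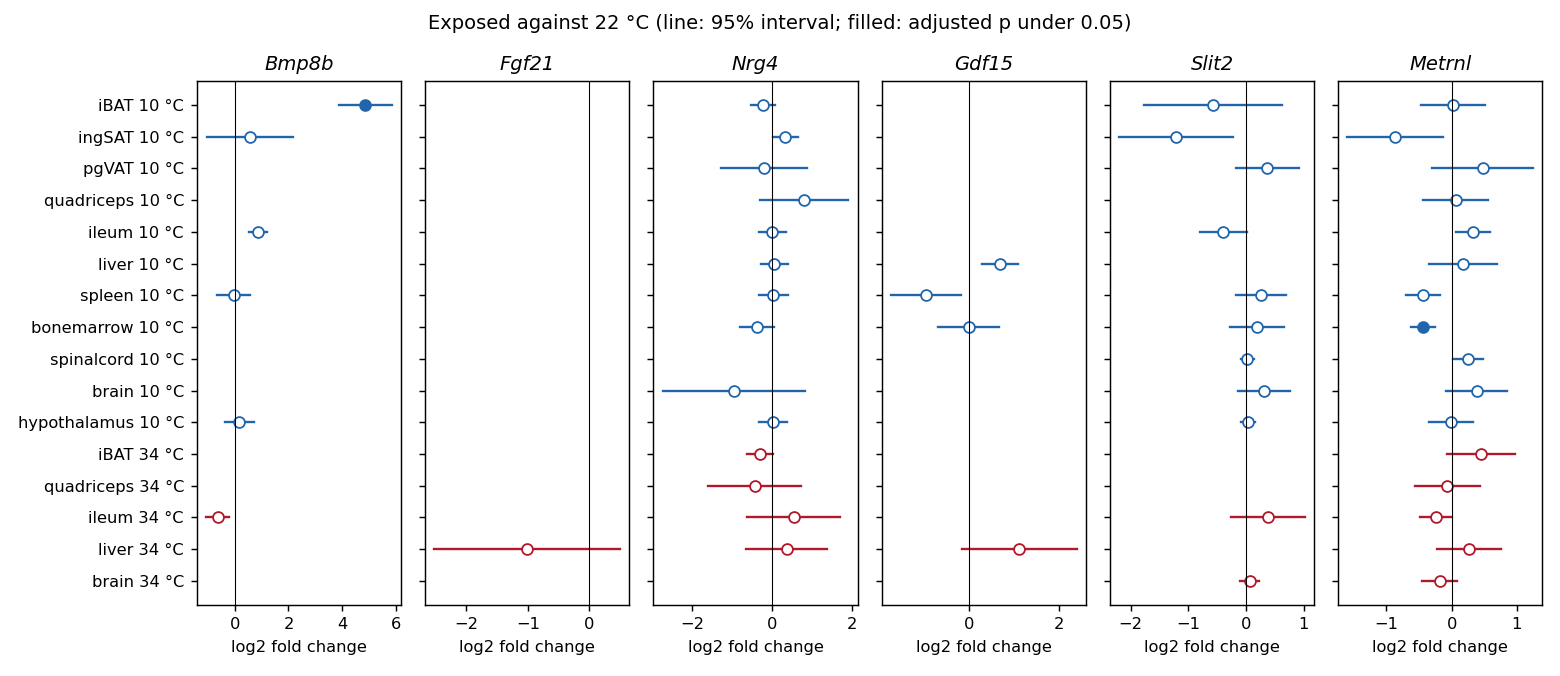
Log2 fold change of each tested member against 22 °C in 16 comparisons, with 95% intervals from edgeR's quasi-likelihood fit, blue for 10 °C and red for 34 °C, and a separate scale for each gene. Filled points passed an adjusted p under 0.05, which were Bmp8b in iBAT and Metrnl in bone marrow at 10 °C. Il6 and pairs with no point were under the filter.

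Further pairs without overlap between groups were not called or were under the filter, and some of them are given here. The share of all genes without overlap was not computed, so lack of overlap is only a description, here and above. With 3 against 3 libraries, the exact two-sided permutation test gives any such pair p = 0.1. Of all genes, 0.0779% were called in spleen, 0.0639% in ileum, 0% in pgVAT and 7.51% in ingSAT. Metrnl in spleen read 13.7, 13.9 and 12.5 CPM at 22 °C and 10.4, 9.61 and 9.49 CPM at 10 °C (log2 fold change -0.44, SE 0.11, adjusted p = 0.485, edgeR), close to its value in bone marrow, though the difference of the 2 tissues was not tested. Slit2 read 19.01, 15.1 and 14.4 CPM in ileum at 22 °C and 12.9, 14.2 and 9.65 CPM at 10 °C (log2 fold change -0.39, adjusted p = 0.307, edgeR). In pgVAT Slit2 read 28.2, 24.8 and 18.2 CPM and then 32.1, 28.6 and 31.6 CPM (0.37, adjusted p = 0.650, edgeR). Il6 had 6, 3 and 5 reads in pgVAT at 22 °C and 2, 2 and 1 at 10 °C, and Gdf15 had 19, 6 and 5 reads in ingSAT at 22 °C and 2, 3 and 2 at 10 °C (exact permutation test, p = 0.1 for both). Fgf21 in liver at 34 °C read 1.39, 0.436 and 2.38 CPM in controls and 1.36, 0.372 and 0.367 CPM in warm mice, with overlap (log2 fold change -1.01, SE 0.67, adjusted p = 0.632, edgeR).

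Of 112 pairs of member and comparison, 52 passed the filter and 2 were called. Of all genes, 0% to 28.9% were called in a comparison. In the 14 comparisons with no member called, 10 pairs had an unadjusted p under 0.05, beside 2.64% to 43.4% of all genes. DESeq2 and edgeR's exact test each called 2 pairs in them, in ileum and liver at 10 °C. The share of all genes over the 16 comparisons together was not computed, so these counts are only a description. In the 7 comparisons with no gene called at all, 2.64% to 18.6% of genes had an unadjusted p under 0.05, DESeq2 called 4 to 518 genes and the exact test 0 to 455.

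Receptors of these factors were counted from a list of 23. Of the 23 receptor genes, 18 were tested in iBAT at 10 °C, 1 rose and 2 fell, beside 11.3% of all genes called, with a median log2 fold change of -0.23 against -0.02 for all genes. Kit, reported as a receptor of Metrnl, rose from 16.3 to 49.99 CPM (log2 fold change 1.63, SE 0.36, adjusted p = 0.0213, edgeR). Erbb4, the receptor of Nrg4, was at 30.7, 37.1 and 39.5 CPM at 22 °C and 17.96, 14.7 and 18.3 CPM at 10 °C, without overlap (log2 fold change -1.07, SE 0.14, adjusted p = 0.00261, edgeR). In the warm set, whose libraries came from another kit, Erbb4 was at only 0.565 to 1.31 CPM in iBAT at 22 °C, and the reason was not tested. Il6ra fell by 0.57 (adjusted p = 0.0486, edgeR). Of the receptors of Bmp8b 6 were tested and none was called, among them Bmpr1a, Bmpr2 and Acvr1c at 88.0, 172 and 261 CPM on average at 10 °C.

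In ingSAT at 10 °C 3 of 20 tested receptors fell and none rose, beside 7.51% of all genes called. They were Acvr1, a type 1 receptor of this family, at -1.10, Fgfr1 at -1.14, and Il6ra at -0.89. The fibroblast markers given above for ingSAT were lower in the same libraries, with none of the 4 called, and their part in these values was not tested. In iBAT at 34 °C 4 of 18 rose and 3 fell, beside 28.9% of all genes called. Klb, the co-receptor that Fgf21 needs, was at 62.7, 54.0 and 93.1 CPM at 22 °C and 35.4, 31.4 and 24.9 CPM at 34 °C (log2 fold change -1.19, SE 0.22, adjusted p = 0.00885, edgeR). Fgfr2 (-0.97) and Acvr2a (-0.37) also fell. Kit (1.39), Erbb3 (1.13), Robo4 (0.71), which is known from endothelium, and Acvr1 (0.46) rose. In the same comparison 3 of 4 endothelium markers and 2 of 5 macrophage markers were called higher, and their part in these values was not tested. In quadriceps at 10 °C Klb rose by 2.56 (SE 0.38, adjusted p = 0.0253, edgeR), where 0.338% of genes were called. The 5 adipocyte markers summed to 193 to 552 CPM at 22 °C and 275 to 790 CPM at 10 °C in quadriceps, and Ucp1 was at 1.46 and then 81.8 CPM on average, and their part in the Klb value was not tested. In bone marrow, where 19% of genes were called, Bmpr1a and Il6ra fell.

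Other factors reported from brown fat were counted from a list of 16, beside the shares of all genes called given above, 11.3% in iBAT at 10 °C, 7.51% in ingSAT and 28.9% in iBAT at 34 °C. In iBAT at 10 °C 3 of 15 tested rose and none fell, with Angptl8 at 1.12, Kng2 at 1.18 and Edn1 at 1.06. In ingSAT 4 rose (Angptl8, Kng2, Nampt and Pm20d1) and Slit3, a relative of Slit2, fell by 1.72. In iBAT at 34 °C 2 of 14 rose (Kng2 and Vegfa) and 2 fell (Rbp4 and Pltp). Of the 16 relatives of the members, 5 were tested in iBAT at 10 °C and none was called, Slit3 was the 1 of 8 called in ingSAT, and Fgf1 rose by 0.98 in iBAT at 34 °C. Of the 9 signs of brown fat activation, 3 rose in iBAT at 10 °C, among them Elovl3, a fatty acid elongase, at 3.50, while 8 rose in ingSAT and 5 fell in iBAT at 34 °C.

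Genes of the integrated stress response, a pathway known to induce Fgf21 and Gdf15, were called in both directions in iBAT. At 10 °C 2 of 11 rose (Atf5 at 1.48 and Mthfd2 at 0.95) and Sesn2 fell by 1.06, where 11.3% of all genes were called. At 34 °C, where 28.9% were, 3 rose (Ddit3, Trib3 and Phgdh) and Sesn2 fell, with a median log2 fold change of 1.22 against 0.02 for all genes. Of the 10 PPAR alpha targets, 8 were tested in iBAT at 34 °C, none rose and 5 fell, with a median log2 fold change of -0.96, among them Acot1 at -4.84 and Ehhadh at -2.85. In ingSAT at 10 °C, where 7.51% of all genes were called, 8 of these targets were tested. There 3 rose (Cpt1b, Pdk4 and Plin5) and 2 fell, among them Cpt1a at -1.19.

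Over the 16 group means of the 8-tissue table, as log2(CPM + 0.5), the genes with the pattern most like each member were read by Pearson correlation, which is a description over tissues that share libraries and depth. For Nrg4 they were Vegfa (r = 0.985), Cyyr1 and Lipe, and for Slit2 they were Bicd1 (r = 0.980), Zfp37 and Lrrc75b. For Gdf15 they were Shmt2 (r = 0.960), Cebpe and Haao, and for Metrnl Stam2 (r = 0.964), Serpinb6a and Pmp22. The best matches were weaker for Bmp8b, with Maff (r = 0.863), Atp6v0a2 and Tacr2, and for Fgf21, with Clec14a (r = 0.865), Atox1 and Cab39l. Il6 stayed under 1 CPM in each of the 16 groups and was not compared.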

How the data were processed

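The deposited tables hold raw gene counts. Per the study, the authors mapped reads to mm10 with STAR and counted them per gene with HTSeq, and the versions in the submitters' processing notes (STAR 2.5.3a, HTSeq 0.6p1) differ from those in the methods. Reads were not mapped again. The libraries held 4262403 to 62880248 counts. Limits given for groups with no read cover counting error only, while intervals of fold changes come from the fit and include the spread between libraries. Identifiers of the 8-tissue table were matched to symbols (21583 of 21647). The 2 groups of a comparison were fitted alone (edgeR 4.0.16, R 4.3.3): TMM scaling, an average log2 CPM above 0, the quasi-likelihood F-test, two-sided, and Benjamini-Hochberg adjustment over all genes tested. CPM divide counts by the library's total over the genes tested times its TMM factor within a comparison. Members under the filter were given by counts and an exact permutation test of log2(CPM + 0.5). Libraries that share a group are separate pools or mice, as the study describes them. No pair of replicate libraries was identical or within sampling noise. The alternatives were library size only, DESeq2 1.42.0, edgeR's exact test, the lowest filter of more than 1 count, the limits of the study, a replicate block and leaving out each library. Fits were tested on simulated data. In no tissue did every pair of same-numbered libraries deviate together at a correlation over 0.1, so they were not treated as pairs. Named genes are the members, Bmp8a, Ucp1, the 3 genes most like each member, and list genes called in iBAT or ingSAT; receptors called elsewhere were named after their values were seen. Where nothing says that libraries came from separate cages, p-values measure only the spread between these libraries. The members and lists were chosen with earlier results of these data known. One gene of the PPAR alpha list is counted in its totals and is not reported here.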

Additional observations from a re-analysis of the deposited data

Results flagged for a closer look

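Differences between tissues were found for Bmp8b at 10 °C. The log2 fold change was larger in iBAT than in ingSAT by 4.30, than in pgVAT by 5.93 and than in liver by 4.43, by the interaction test. Bmp8b was under the filter in pgVAT and in liver on their own and entered those tests through cold iBAT. When each library was left out in turn, the difference was called in 10 of 12 fits for ingSAT, 3 of 12 for pgVAT and 12 of 12 for liver. Among bone marrow libraries, 1 of 6 stood apart for Fgf21 in each group, at 0.0578 CPM at 22 °C and 0.0512 CPM at 10 °C, which is 1 read against 0 in the other libraries. Of 34 groups examined 2 were singled out in this way. Where the other libraries have 0 reads, any library with 1 read stands apart, so both rest on the low counts.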

How the results depend on the processing

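Bmp8b in iBAT at 10 °C was called under each alternative run, and its log2 fold change ran from 4.49 to 5.32 when a library was left out. The number of members called moved in other comparisons. In iBAT at 10 °C it was 1, and 2 at the lowest filter, where Fgf21 entered the test. The limits of the study gave 2 in ingSAT, 1 each in ileum and liver at 10 °C, spleen and ileum at 34 °C, in place of 0, and 0 in bone marrow in place of 1. DESeq2 and edgeR's exact test each gave 1 in ileum and 1 in liver at 10 °C in place of 0. Of all genes, DESeq2 called 556 and 518 there, and the exact test 331 and 455. Library size alone gave 1 in iBAT at 34 °C in place of 0, and 0 for the difference between iBAT and pgVAT in place of 1. Leaving out a library gave 0 to 2 in ingSAT, 0 to 1 in iBAT at 34 °C, and 0 to 1 for the differences of iBAT from ingSAT and from pgVAT. Without 22 °C replicate 3, Slit2 and Metrnl were called in ingSAT, in a fit that called a larger share of all genes. The difference of Bmp8b from ingSAT lost its call without iBAT 22 °C replicate 2 and without ingSAT 10 °C replicate 3. Apart from the samples left out, the cause was not tested.

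The values that turned direction were called neither before nor after. Library size alone gave -0.12 for Metrnl in iBAT at 10 °C, -0.048 for Nrg4 in ileum and -0.000153 in liver at 10 °C, and 0.0051 for Gdf15 in bone marrow. It moved the median of all genes to -0.18 in iBAT at 10 °C, 0.30 in iBAT at 34 °C, 0.16 in quadriceps and 0.10 in brain at 10 °C. With it, calls in iBAT went from 796 higher and 649 lower to 489 and 1449 at 10 °C, and from 1661 and 1900 to 4234 and 684 at 34 °C. The other prefix of quadriceps columns gave -0.10 for Metrnl at 10 °C, and 0.12 for Metrnl and 0.43 for Nrg4 at 34 °C. Leaving out a library turned Metrnl in iBAT at 10 °C (-0.22 to 0.18), in quadriceps at 10 °C (-0.084 to 0.22, with -0.032 as the other turned value) and at 34 °C (-0.25 to 0.087, with 0.0026 and 0.028 as the other turned values) and in hypothalamus (-0.13 to 0.13). It turned Nrg4 in pgVAT (-0.91 to 0.11), ileum (-0.052 to 0.065), hypothalamus (-0.11 to 0.11) and liver at 10 °C (-0.012 to 0.18) and 34 °C (-0.21 to 0.74), Bmp8b in spleen (-0.15 to 0.16), and Slit2 in hypothalamus (-0.026 to 0.072) and spinal cord (-0.0047 to 0.061). Differences of iBAT turned for Slit2 against ingSAT (-0.083 to 1.04), Nrg4 against pgVAT (-0.34 to 0.65), Metrnl against liver at 10 °C (-0.38 to 0.028) and 34 °C (-0.093 to 0.31), and Gdf15 against liver at 10 °C (-0.074 to 1.09). Of the values of single members, 728 kept direction and side of the threshold, 42 turned, 14 gained a call and 12 lost one.

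With a replicate block, Bmp8b in iBAT was at 4.85 and Metrnl in bone marrow at -0.44 (adjusted p = 0.0301, edgeR), the number of members called was 1 in both and 0 in the other tissues with a block, and Metrnl turned to -0.012 in iBAT and 0.0065 in hypothalamus. The block moved all calls from 1445 to 1892 in iBAT, 1050 to 452 in ingSAT, 9 to 88 in ileum, 11 to 145 in spleen and 2377 to 1339 in bone marrow. The labels tie same-numbered libraries to nothing shared, and in no tissue did each pair deviate together at a correlation over 0.1.

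Leaving out single libraries was not run in bone marrow, which has 6 in each group. The planned split of the quadriceps controls by animal could not be tied to columns, and sets by column prefix, chosen after seeing the data, stand in for it. The protein identity of Bmp8a and Bmp8b was not run. At the depth of these libraries, Fgf21, Gdf15 and Il6 in iBAT of the cold set rested on at most 33 reads.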
